A study of Rattus norvegicus with 12 samples.

Results

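Collagens, laminins, matrix metalloproteases and their companion matrix proteins were followed through nerve injury in rat dorsal root ganglia, which hold the cell bodies of the sensory neurons of each spinal nerve. Membership went by gene symbol: every collagen chain (Col, a number, a and a number), every laminin chain (Lama, Lamb or Lamc with a number), every metalloprotease with a symbol of the Mmp or Adamts series, and Fn1, Sparc, Lum, Dcn, Bgn, Tnc, Lox, Vcan, Fbn1, Thbs1 and Thbs2. The set itself was chosen with earlier results of these data known. Of the 10411 genes with a named probe set, 63 met the rule: 29 collagen chains, 8 laminin chains, 14 matrix metalloproteases, 3 ADAMTS proteases and 9 genes taken by name. Thbs1 and Thbs2 were not analysed here. A probe set is the group of short probes that reads 1 transcript, and where a gene had several (20 of the 63) the one with the highest mean signal stood for it.

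Total RNA of L4/L5 ganglia was hybridised to 12 Affymetrix arrays, 3 in each of 4 groups. All animals were adult male Sprague Dawley rats of either the High Pain (HP) or the Low Pain (LP) genetic sub-line. Within each line, 1 group had spinal nerve ligation (SNL) of L4 and L5, a model of neuropathic pain, and was sampled at 3 days, and the other had sham surgery that left the nerve undamaged. The sham groups have no time in their titles, and nothing in the labels says whether the replicates were separate animals or pools, so each p-value reflects the spread of these arrays alone and that spread may be technical.

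The extracellular matrix of a ganglion surrounds each neuron and its satellite glia, lines the capillaries and forms the connective tissue capsule. Fibrillar collagens give it tensile strength, network collagens and laminins build the basement membranes on which Schwann cells, satellite glia and endothelial cells sit, and glycoproteins and proteoglycans link these scaffolds to cells and growth factors. Matrix metalloproteases and ADAMTS proteases cut these proteins, and tissue inhibitors hold the proteases in check. After nerve injury, matrix is both degraded and laid down.

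Signals were on a linear scale with the same trimmed mean, 500.1, on every array, and the median signal per array lay between 278.4 and 313.2. Log2 signals over all genes correlated at 0.944 to 0.969 between arrays of a group and at 0.921 to 0.965 between arrays of different groups. Differences below are SNL minus sham on the scale of log2(signal + 1), ± the standard error of limma's fit to all 12 arrays, which understates the change of dim genes. A gene was called higher or lower at an adjusted p under 0.05 (Benjamini-Hochberg over all 10411 genes). Because signals of different probe sets are not on a common scale, levels are compared only within a gene. Of the 63 genes, 14 lay in the dimmest 25% of all genes, where values are least precise.

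Matrix genes were mostly higher after ligation in both lines. In HP, 21 of the 63 rose and 1 fell, which is 33.3% rising, while among all 10411 genes 13.6% were called, 7.02% higher and 6.61% lower. In LP, 27 rose and 1 fell, or 42.9% rising, against 14.4% of all genes called, 7.66% higher and 6.79% lower. These shares of all genes are the background for every count by role group or marker list below. Col18a1, Fn1, Mmp16, Adamts1 and Tnc were among the largest increases called in both lines, and Col19a1 was the gene that fell in both. The median log2 difference of the 63 genes was 0.36 in HP and 0.51 in LP, where the medians over all genes were -0.00077 and 0.023. A difference above 0 was measured for 55 genes in HP and 52 in LP, called or not. All 3 SNL arrays lay above all 3 sham arrays for 37 of the 63 genes in HP and 34 in LP (17.2% and 16.5% of all genes), and below them for 2 genes in each line (17.1% and 14.7% of all genes).

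The count of calls depended on single arrays. Of the 22 calls in HP, 13 were kept without HP sham replicate 1, 13 without HP sham replicate 3 (where 1 other gene was called), 14 without HP SNL replicate 1, 14 without HP SNL replicate 2 and 13 without HP SNL replicate 3, while the share of all genes called was also lower, between 8.13% and 10.6%. Of the 28 calls in LP, 17 were kept without LP SNL replicate 3, where 9.87% of all genes were called. The ratio of the 3' to the 5' beta-actin control probe set, a sign of RNA integrity, was 1.48 to 1.85 on the HP sham arrays and 1.12 to 1.34 on the HP SNL arrays, and 0.99 to 1.88 on the LP sham arrays against 1.11 to 1.13 on the LP SNL arrays. With this ratio as a covariate 9 matrix genes were called in HP (7.84% of all genes) and 25 in LP (13.8% of all genes). The same ratio of the GAPDH control overlapped between sham and SNL in both lines and was not used as a covariate. It was 1.09 to 1.17 in HP sham, 1.07 to 1.24 in HP SNL, 1.06 to 1.10 in LP sham and 1.08 to 1.18 in LP SNL.

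**Figure D1:**
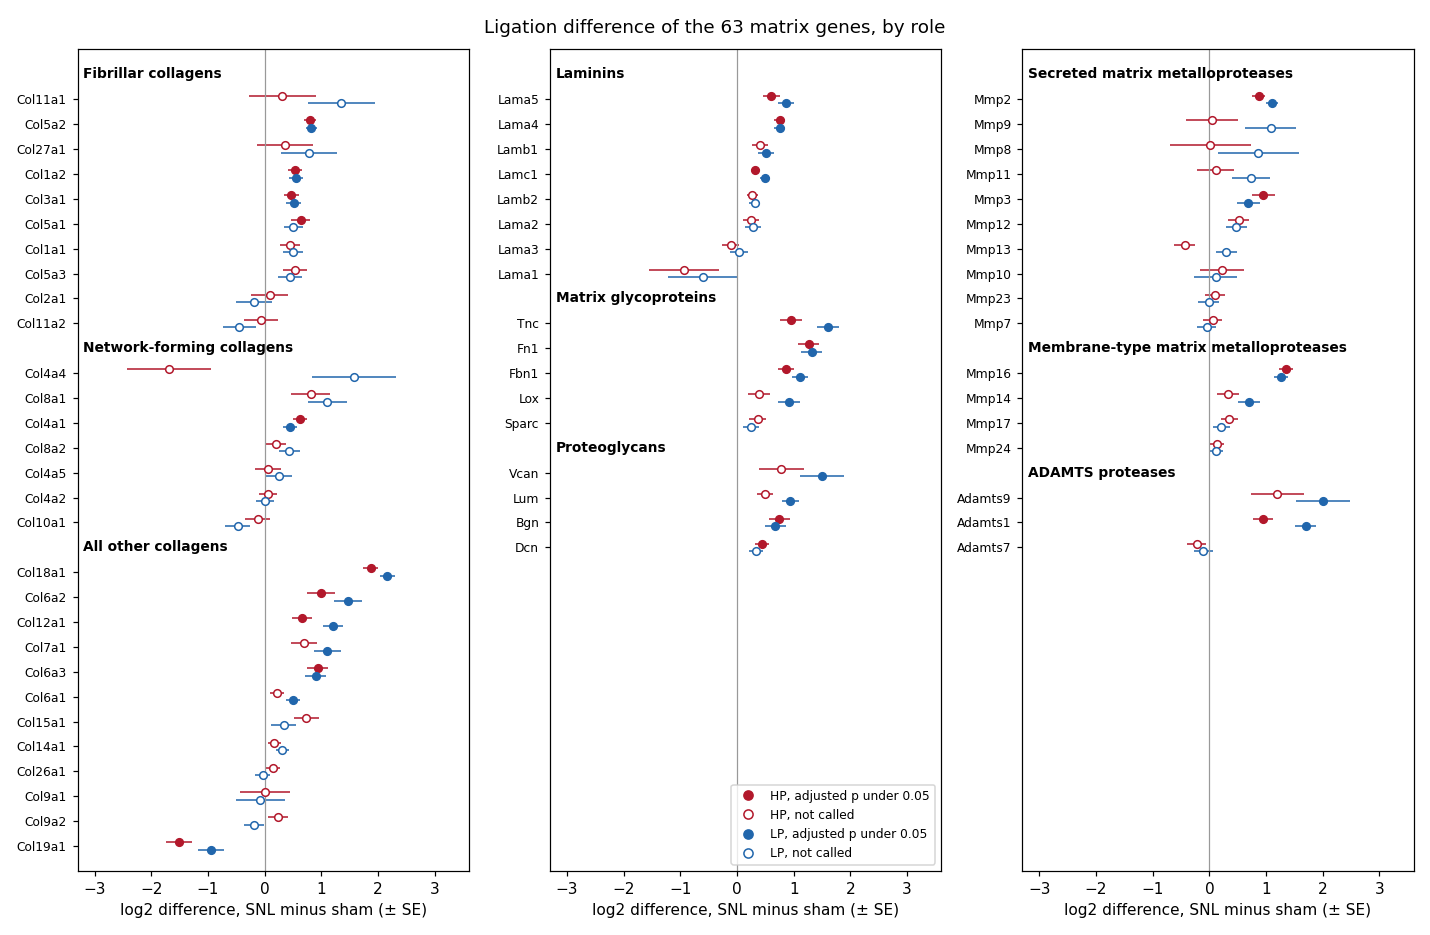
Log2 difference between SNL and sham (x axis, ± SE) for each of the 63 matrix genes (rows, by role) in HP (red) and LP (blue), with filled points for an adjusted p under 0.05. Most points lie to the right of 0, with Col18a1 at 1.87 in HP and 2.16 in LP, and Col19a1 is the only filled point to the left.

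Markers of several cell types moved in the same comparison. The summed signal of 11 fibroblast markers, none of them among the 63 genes, was 8812 to 10131 in HP sham, 11999 to 13690.2 in HP SNL, 9520.3 to 9915 in LP sham and 11093 to 13612 in LP SNL. The sum of 10 macrophage markers was 5956 to 7010.5 in HP sham, 12513 to 13455 in HP SNL, 5131 to 5668 in LP sham and 11016 to 13103 in LP SNL. Both sums were higher on every SNL array than on every sham array of the same line. Signals of different probe sets are not on a common scale, so each sum is weighted toward its brightest markers. In the fibroblast list these were Thy1 and S100a4, with median signals of 4184 and 3420, against 730 for the next, Islr. S100a4 alone ranged from 1781 to 6357.5 over the arrays, so the fibroblast sum does not show a shift of the list as a whole. The brightest macrophage marker was Lyz2, with a median of 4121. By gene, 8 of the 10 macrophage markers rose in each line, while 3 of the 11 fibroblast markers rose in each line and 1 fell in LP.

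The 10 endothelial and mural markers summed to 4124 to 4292 in HP sham, 4806 to 5425 in HP SNL, 3989.8 to 4105 in LP sham and 5263 to 5561 in LP SNL, with 3 of 10 higher in each line. The 12 sensory neuron markers, which include the neurofilaments and Calca, checked the tissue label and ran the other way, with sums of 65767 to 70075 in HP sham, 54857 to 58229 in HP SNL, 63228 to 70499 in LP sham and 49127 to 54982 in LP SNL. Sums of the 7 satellite glia markers were 12899 to 15789.8 and 18039.6 to 18194 in HP, after sham and SNL, and overlapped in LP. Those of the 8 Schwann cell markers were 30393 to 34339.7 in HP sham and 35109.7 to 37247 in HP SNL, and in LP the SNL range of 32197 to 32834 lay inside the sham range. The 11 skeletal muscle markers summed to 6164 to 6928 in HP sham, 4063 to 4957 in HP SNL, 5436.5 to 5994.5 in LP sham and 4598 to 4884 in LP SNL, with 4 of them lower in HP and 0 in LP. The brightest of these were Myh1 and Pvalb, with median signals of 1951 and 1531. Whether their signal came from muscle was not tested. Sums of the 9 T and NK cell markers were 1181.8 to 1261 in HP sham, 1458.5 to 1609 in HP SNL, 1155.5 to 1298 in LP sham and 1430.7 to 1792 in LP SNL. Those of the 6 cartilage and bone markers were 830.4 to 881 in HP sham and 713 to 781 in HP SNL, but overlapped in LP at 729.8 to 767 after sham and 755.5 to 789.5 after SNL. The 3 measured neutrophil markers overlapped in both lines, at 294.5 to 824 and 457.5 to 1065 in HP and 281 to 362.5 and 228 to 440 in LP.

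No marker was at 0 on any array. In the dimmest 25% of genes were 6 of the 9 T and NK cell markers, 5 of the 11 skeletal muscle, 3 of the 6 cartilage and bone, 2 of the 3 neutrophil and 2 of the 11 fibroblast markers (Pi16 and Cd248), and none of the other 5 lists. The part of any cell type in the matrix results was not tested. In RNA of whole ganglia, fewer cells of a type and less RNA per cell cannot be told apart.

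**Figure D2:**
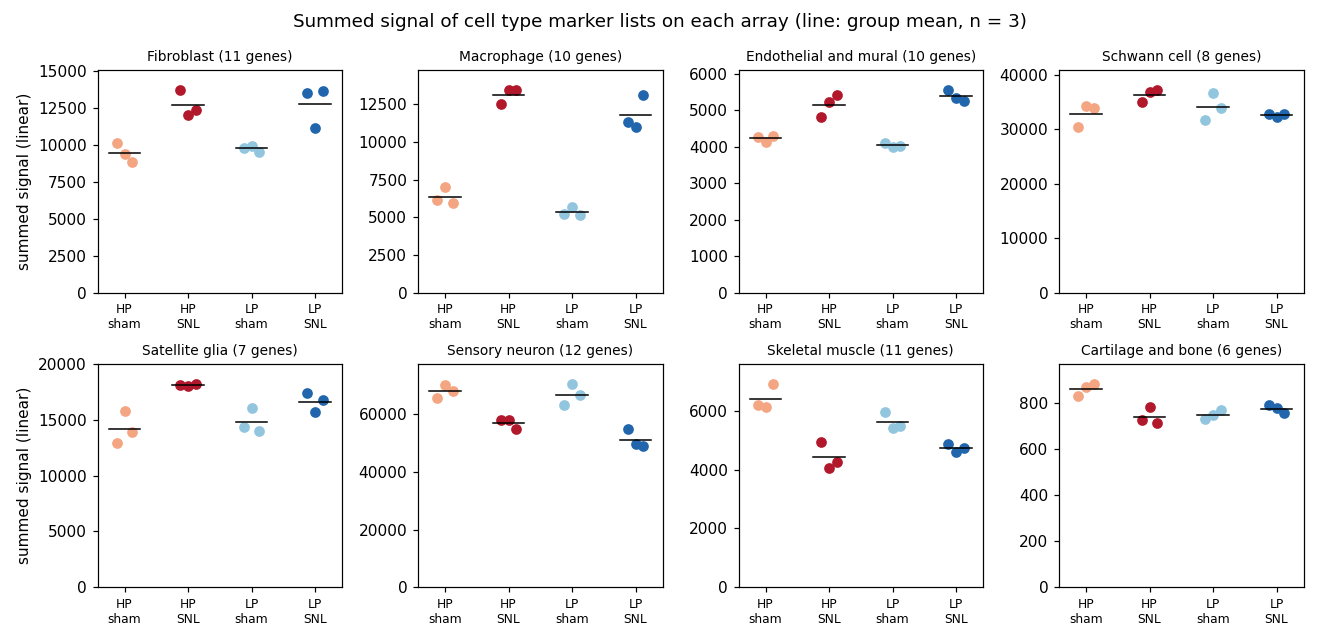
Summed linear signal (y axis, from 0) of 8 cell type marker lists on each array, grouped by line and operation, with a line at each group mean (n = 3). The macrophage sums separate into sham arrays at 5131 to 7010.5 and SNL arrays at 11016 to 13455, while the sensory neuron sums are lower on the SNL arrays.

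Among the 10 fibrillar collagen chains, which assemble into the banded fibres of connective tissue, 4 rose in HP and 3 in LP. Col5a2, a chain of type V collagen that regulates fibre diameter, gave 1057, 994 and 938 in HP sham, 1723, 1630.3 and 1858 in HP SNL, 1019, 955 and 1166 in LP sham and 1784, 1834 and 1921 in LP SNL. Every SNL array was above every sham array, with little spread inside the groups. The log2 difference was 0.80 ± 0.10 in HP (adjusted p = 0.000858) and 0.82 ± 0.10 in LP (adjusted p = 0.000582), and the call held in all 24 alternative settings in both lines.

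The other type V chains were Col5a1, at 0.64 ± 0.17 in HP (adjusted p = 0.0332) and an uncalled 0.51 ± 0.17 in LP (adjusted p = 0.0726), and Col5a3, uncalled at 0.53 ± 0.21 and 0.45 ± 0.21. The other Col5a1 probe set gave 0.53 ± 0.13 in HP and 0.74 ± 0.13 in LP (adjusted p = 0.0274 and 0.00505 among all probe sets). The Col5a1 call in HP was lost in 8 of 24 alternatives, among them those without HP sham replicate 1 or 3 or any 1 of the 3 HP SNL arrays (adjusted p up to 0.142), and in LP a call was gained in 6 of 24. Col3a1, the type III collagen of pliable tissue such as vessel walls, gave 3666, 4107 and 4095 in HP sham, 5543, 5922 and 5015 in HP SNL, 3614, 3729 and 3963 in LP sham and 6253, 4339 and 5713 in LP SNL. No sham array reached the SNL arrays of its line, although LP SNL replicate 2 lay far below the other two. Col3a1 rose by 0.47 ± 0.14 in HP and 0.51 ± 0.14 in LP (adjusted p = 0.0449 and 0.0296). These calls were near the threshold: the HP call was kept in 8 of 24 alternatives and lost without any 1 of the 6 HP arrays, the 3 LP sham arrays or LP SNL replicate 3, and the LP call was kept in 16 and lost without LP sham replicate 1 or 2 or LP SNL replicate 1 or 3.

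Type I collagen, the main fibre former of the capsule and of scar, is built from Col1a1 and Col1a2. Col1a2 rose by 0.53 ± 0.12 in HP (adjusted p = 0.0183) and 0.56 ± 0.12 in LP (adjusted p = 0.0127), with the HP arrays at 3980.1 to 4909.6 after sham and 5877 to 6816 after SNL and the LP arrays at 4140.1 to 5044 and 6091 to 7268. The call was lost without HP sham replicate 1 or 3 or HP SNL replicate 3 in HP, and without LP SNL replicate 1 or 3 in LP (adjusted p up to 0.122 and 0.0601 over the alternatives). The other Col1a2 probe set gave 0.44 ± 0.15 in HP, where it did not pass, and 0.53 ± 0.15 in LP (adjusted p = 0.0944 and 0.0438 among all probe sets). Col1a1 gave 4225, 4458 and 4169 in HP sham, 5708, 6547 and 5390.5 in HP SNL, 4190.1, 4445 and 3754 in LP sham and 6753, 4189 and 6954 in LP SNL. The HP groups did not overlap, but LP SNL replicate 2 lay within the LP sham range. Col1a1 differed by 0.45 ± 0.18 in HP and 0.50 ± 0.18 in LP and was called in neither (adjusted p = 0.135 and 0.0973), although its other probe set, tested among all probe sets, had differences of 0.52 ± 0.11 and 0.49 ± 0.11 (adjusted p = 0.0117 and 0.0137). Col2a1, Col11a1, Col11a2 and Col27a1, chains best known from cartilage, were uncalled in both lines, with differences of -0.06 to 0.35 in HP and -0.45 to 1.35 in LP. The other probe set of Col2a1 gave -1.19 ± 0.31 in HP and -0.77 ± 0.31 in LP (adjusted p = 0.0341 and 0.142 among all probe sets).

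Of the 7 network-forming collagen chains, 1 rose in each line, Col4a1. With so few chains, 1 call is 14.3%, against 7.02% of all genes higher in HP and 7.66% in LP. Col4a1 and Col4a2 encode the chains of the common type IV collagen of basement membranes, which combine in the same molecule. Col4a1 gave 1232, 1421 and 1307 in HP sham, 1988, 1822 and 2310.1 in HP SNL, 1168, 1123 and 1451 in LP sham and 1747, 1587 and 1754 in LP SNL. All SNL arrays were above the sham arrays of their line, and Col4a1 rose by 0.62 ± 0.13 (adjusted p = 0.0104) and 0.45 ± 0.13 (adjusted p = 0.0396). In LP the call was lost without LP sham replicate 1 or 2, any 1 of the 3 LP SNL arrays, HP sham replicate 1 or 3 or HP SNL replicate 1 (adjusted p up to 0.128 over the alternatives). In HP it was lost only with the actin covariate (adjusted p = 0.0796). The other Col4a1 probe set gave 0.62 ± 0.09 and 0.49 ± 0.09.

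Col4a2 gave 1196, 981 and 1372 in HP sham, 1141, 1060.5 and 1493 in HP SNL, 1552, 1369 and 1367 in LP sham and 1331, 1540.5 and 1423 in LP SNL. The groups overlapped in both lines, and the differences were 0.06 ± 0.16 and 0.00 ± 0.16, with 95% intervals of -0.29 to 0.40 and -0.35 to 0.35 (adjusted p = 0.869 and 0.996). The intervals of Col4a1 were 0.34 to 0.91 in HP and 0.17 to 0.73 in LP. The difference between the genes was not tested, since each was read by its own probe set. In the RefSeq annotation of the rat assembly GRCr8 the genes lie head to head on chromosome 16, Col4a1 on the plus strand and Col4a2 on the minus strand, with 76 bases between their start sites. The whole stretch between them (chr16:84885521-84885596, plus strand) is shown because both genes start from it, with the GC box in capitals, here the reverse complement of the searched letters GGGCGG.
Col4a1: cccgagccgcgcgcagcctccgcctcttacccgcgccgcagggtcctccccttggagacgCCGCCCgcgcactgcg

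The remaining network collagens were uncalled in both lines. Col8a1, a short-chain collagen of vessel walls, had the largest uncalled positive difference in HP of this group, 0.81 ± 0.34, with 1.11 ± 0.34 in LP, and its groups did not overlap in either line (adjusted p = 0.164 and 0.0589). Col4a4, a chain of the specialised kidney-type basement membrane, was dim and scattered, at 111, 100.1 and 97.3 in HP sham, 74.6, 29.3 and 13.8 in HP SNL, 26.7, 22.8 and 170.0 in LP sham and 102, 177 and 161 in LP SNL. The HP SNL arrays all lay below the HP sham arrays, whereas LP sham replicate 3 lay among the LP SNL arrays. Its differences of -1.68 ± 0.74 and 1.57 ± 0.74 did not pass (adjusted p = 0.179 and 0.204). Col4a5, Col8a2 and Col10a1 had differences between -0.12 and 0.20 in HP and between -0.47 and 0.44 in LP.

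The 12 other collagen chains are those of beaded filaments, fibre surfaces and basement membrane zones, and 4 rose in HP and 6 in LP, with 1 lower in each. Col18a1, the basement membrane collagen whose end fragment is endostatin, gave 492, 565 and 454 in HP sham, 1896, 1647 and 1987 in HP SNL, 383, 477 and 411 in LP sham and 1815, 2152 and 1731 in LP SNL. No SNL array came near a sham array. The difference was 1.87 ± 0.13, or 3.66-fold, in HP (adjusted p = 5.11e-05) and 2.16 ± 0.13, or 4.47-fold, in LP (adjusted p = 2.30e-05). The other Col18a1 probe set gave 2.35 ± 0.27 and 2.39 ± 0.27, and the call held in all 24 alternatives in both lines.

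Col6a1, Col6a2 and Col6a3 encode the chains that build the type VI collagen filament around cells. Col6a3 gave 782, 842 and 669 in HP sham, 1435, 1677 and 1287 in HP SNL, 676, 690.1 and 852 in LP sham and 1553, 1027 and 1630.4 in LP SNL. The groups did not overlap, and Col6a3 rose by 0.94 ± 0.19 (adjusted p = 0.00987) and 0.90 ± 0.19 (adjusted p = 0.0102). Col6a2 gave 380.5, 488 and 394 in HP sham, 858, 769.5 and 874 in HP SNL, 314, 176 and 376 in LP sham and 649.6, 778 and 892 in LP SNL. Its SNL arrays again lay above all sham arrays, and it rose by 0.99 ± 0.25 (adjusted p = 0.0258) and 1.48 ± 0.25 (adjusted p = 0.00333). The other Col6a2 probe set, less bright and noisier, did not pass, at 0.37 ± 0.76 and 0.10 ± 0.76. In HP the Col6a2 call was also lost without HP sham replicate 1 or 3 or any 1 of the 3 HP SNL arrays (adjusted p up to 0.828 over the alternatives). Col6a1 was called in LP only, at 0.50 ± 0.13 (adjusted p = 0.0245) against 0.22 ± 0.13 in HP (adjusted p = 0.319), and the LP call was lost without LP sham replicate 2 or 3 or LP SNL replicate 1 or 3.

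Col12a1, a collagen on fibre surfaces, gave 520.0, 558 and 461 in HP sham, 757, 775 and 913 in HP SNL, 269, 351 and 464 in LP sham and 833, 769.5 and 835 in LP SNL. The SNL arrays of the lines covered a similar range, while the LP sham arrays reached lower than the HP sham arrays. The differences were 0.67 ± 0.18 (adjusted p = 0.0330) and 1.20 ± 0.18 (adjusted p = 0.00167). The HP call was lost without any 1 of the 6 HP arrays, and the other probe set did not pass in either line, at 0.04 ± 0.27 and 0.57 ± 0.27 (adjusted p = 0.949 and 0.211). Col7a1, the anchoring fibril collagen, was called in LP only, at 1.11 ± 0.23 (adjusted p = 0.0106) against 0.70 ± 0.23 in HP (adjusted p = 0.0810).

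Col19a1, a fibre-associated collagen, was the 1 matrix gene called lower. It gave 81.3, 128 and 111 in HP sham, 30.6, 41.3 and 37.2 in HP SNL, 55.4, 100.5 and 82.9 in LP sham and 43.1, 42.4 and 34.0 in LP SNL, and by its mean log2 signal it was in the dimmest 25% of genes. Every SNL array was below every sham array. The difference was -1.51 ± 0.23 in HP (adjusted p = 0.00269), kept in all 23 alternatives that could be run for it, and -0.95 ± 0.23 in LP (adjusted p = 0.0221), lost without LP sham replicate 2 or 3 or LP SNL replicate 3 (adjusted p up to 0.0837 over the alternatives). Col9a1, Col9a2, Col14a1, Col15a1 and Col26a1 were uncalled in both lines, between 0.01 and 0.74 in HP and between -0.19 and 0.34 in LP, with Col15a1 at the top of both ranges (adjusted p = 0.0584 in HP).

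**Figure D3:**
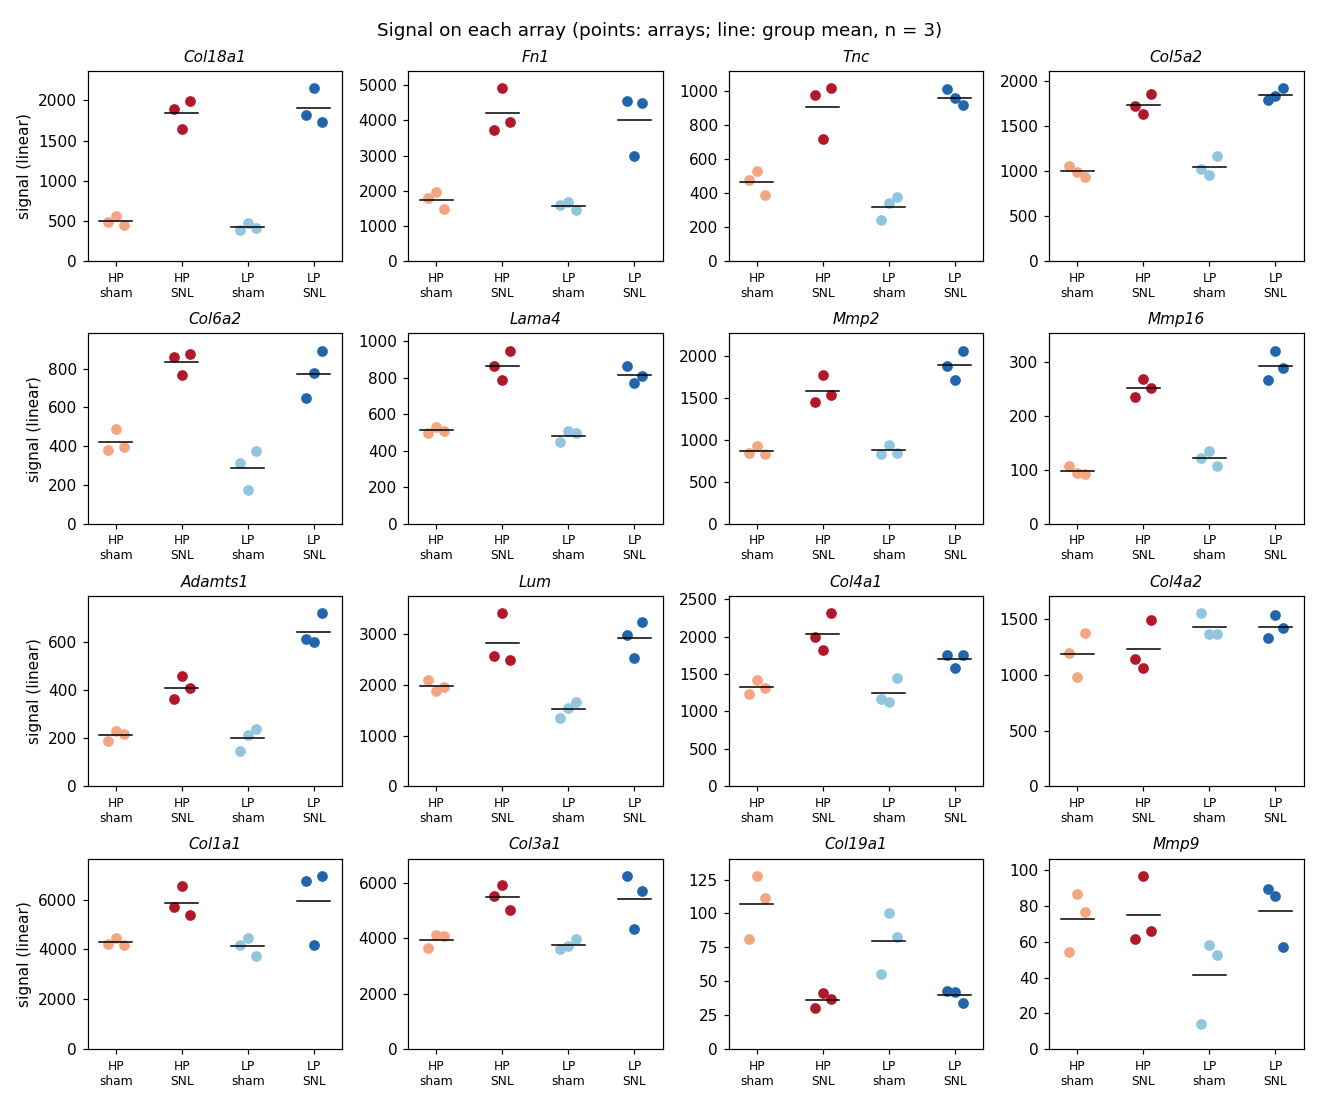
Linear signal (y axis, from 0) of 16 matrix genes on each array, grouped by line and operation, with a line at each group mean (n = 3). Col18a1 lies at 383 to 565 on the sham arrays and at 1647 to 2152 on the SNL arrays, Col4a1 separates while Col4a2 overlaps, and Col19a1 is lower after SNL.

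Laminins are cross-shaped trimers of an alpha, a beta and a gamma chain. Of the 8 chains, 3 rose in HP (Lama4, Lama5 and Lamc1) and 4 in LP (those and Lamb1). Lama4, the alpha chain of vessels and of developing and injured nerve, gave 494, 531 and 508 in HP sham, 862, 788 and 947 in HP SNL, 445, 509 and 495 in LP sham and 862, 769.8 and 808 in LP SNL. The sham arrays of both lines lay together and all SNL arrays lay above them. Lama4 rose by 0.76 ± 0.10 (adjusted p = 0.00102) and 0.75 ± 0.10 (adjusted p = 0.000855), in all 24 alternatives in both lines.

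Lamc1, the gamma chain of most laminins, gave 1362, 1446 and 1469.7 in HP sham, 1848, 1785 and 1726 in HP SNL, 1535, 1419.9 and 1646 in LP sham and 2097, 2264 and 2128 in LP SNL. The groups did not overlap within a line, and the LP SNL arrays were the highest of all. Lamc1 rose by 0.33 ± 0.09 (adjusted p = 0.0327), a call lost without any 1 of the 6 HP arrays, and by 0.50 ± 0.09 (adjusted p = 0.00389), a call kept in all 24 alternatives. The other Lamc1 probe set gave 0.64 ± 0.08 in HP and 0.57 ± 0.08 in LP (adjusted p = 0.00136 and 0.00187 among all probe sets). On that probe set the rise was not larger in LP. Lama5, the alpha chain of mature basement membranes, rose by 0.61 ± 0.15 (adjusted p = 0.0219) and 0.87 ± 0.15 (adjusted p = 0.00355), but its other, dimmer probe set gave -1.21 ± 0.37 in HP and 0.35 ± 0.37 in LP (adjusted p = 0.0644 and 0.624). In HP the Lama5 call was also lost without HP sham replicate 1 or 3 or any 1 of the 3 HP SNL arrays.

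Lamb1 was called in LP at 0.51 ± 0.14 (adjusted p = 0.0374) and uncalled in HP at 0.41 ± 0.14 (adjusted p = 0.0924). The LP call was lost without LP sham replicate 2 or 3, any 1 of the 3 LP SNL arrays, or HP SNL replicate 1 or 2. Lamb2 had differences of 0.27 ± 0.09 and 0.31 ± 0.09 with no overlap between the groups (adjusted p = 0.0916 and 0.0514). Lama2, the alpha chain of the Schwann cell and muscle basement membrane, gave 1072, 1205 and 1077 in HP sham, 1279, 1328 and 1366 in HP SNL, 897, 1097 and 1404 in LP sham and 1334, 1349.5 and 1393 in LP SNL. Its differences of 0.25 ± 0.14 and 0.29 ± 0.14 did not pass (adjusted p = 0.310 and 0.229), and the LP groups overlapped through LP sham replicate 3. Lama1 and Lama3, mainly epithelial chains, were uncalled, with Lama1 at -0.94 ± 0.62 and -0.61 ± 0.62 and a wide spread in HP SNL, from 33.9 to 259.

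Of the 5 matrix glycoproteins, a group that here includes the cross-linking enzyme Lox, 3 rose in HP and 4 in LP. Fn1 encodes fibronectin, the adhesive protein laid down early in wounds. It gave 1797, 1967 and 1476 in HP sham, 3719, 4918 and 3956 in HP SNL, 1605, 1676 and 1457 in LP sham and 4553, 2993 and 4481 in LP SNL. The lowest SNL array, LP SNL replicate 2, was still above the highest sham array. Fn1 rose 2.40-fold in HP, 1.26 ± 0.18 on the log2 scale (adjusted p = 0.00181), and 2.50-fold in LP, 1.32 ± 0.18 (adjusted p = 0.00121).

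Tnc encodes tenascin-C, a glycoprotein of developing and injured tissue that loosens cell adhesion. It gave 479, 534 and 388 in HP sham, 982, 719.5 and 1019 in HP SNL, 244, 341 and 378 in LP sham and 1013, 962 and 917 in LP SNL. The LP sham arrays all lay below the HP sham arrays, while the SNL arrays of the lines overlapped. Tnc rose by 0.95 ± 0.19 (adjusted p = 0.0100) and 1.61 ± 0.19 (adjusted p = 0.000537).

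Fbn1, the fibrillin of elastic microfibrils, gave 1069, 1025 and 775 in HP sham, 1553, 1872 and 1768 in HP SNL, 817, 812 and 863 in LP sham and 1746, 1597 and 2044 in LP SNL. The groups did not overlap in either line. Fbn1 rose by 0.87 ± 0.14 and 1.10 ± 0.14 (adjusted p = 0.00360 and 0.000806), and by 1.36 ± 0.15 and 1.37 ± 0.15 on its other probe set. The calls of Fn1 and Fbn1 held in all 24 alternatives in both lines, and that of Tnc in LP did too, while in HP it was lost only with the actin covariate (adjusted p = 0.0546).

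Lox, which cross-links collagen and elastin, gave 248, 279 and 259 in HP sham, 312, 361 and 359.5 in HP SNL, 166, 235 and 315 in LP sham and 427, 420.3 and 463 in LP SNL. Its groups did not overlap in either line, but only LP passed, at 0.92 ± 0.19 (adjusted p = 0.00995) against 0.39 ± 0.19 in HP (adjusted p = 0.229). The other, dimmer Lox probe set passed in neither line, at 0.74 ± 0.34 in HP and 0.86 ± 0.34 in LP (adjusted p = 0.208 and 0.138 among all probe sets). Sparc, a collagen-binding protein, gave 5759.8, 7128 and 5960.1 in HP sham, 8348, 7398 and 8405 in HP SNL, 5311, 6364 and 6055 in LP sham and 8393, 5939 and 6789.8 in LP SNL. The LP groups overlapped, and the differences of 0.36 ± 0.14 and 0.24 ± 0.14 did not pass (adjusted p = 0.135 and 0.325).

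Of the 4 proteoglycans, 2 rose in HP (Bgn and Dcn) and 3 in LP (Lum, Vcan and Bgn). Bgn, Dcn and Lum encode small leucine-rich proteoglycans that bind collagen fibres, and Vcan encodes versican, a large one that binds hyaluronan. Lum gave 2105, 1886 and 1949 in HP sham, 2562, 3410.0 and 2481 in HP SNL, 1338, 1545 and 1667 in LP sham and 2974, 2529 and 3240.4 in LP SNL. The LP sham arrays were the lowest and the SNL ranges of the lines overlapped. Lum rose by 0.94 ± 0.15 in LP (adjusted p = 0.00235), in all 24 alternatives, and differed by 0.50 ± 0.15 in HP without passing (adjusted p = 0.0524).

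Bgn gave 1216, 1381 and 1049.9 in HP sham, 2007, 1999.8 and 2068 in HP SNL, 1094, 1552 and 1954 in LP sham and 2607, 2353 and 2219.8 in LP SNL. The groups did not overlap, although the LP sham arrays were spread out. It rose by 0.74 ± 0.19 (adjusted p = 0.0270) and 0.68 ± 0.19 (adjusted p = 0.0364), and both calls were lost without any 1 of several arrays: HP sham 1 or 3 and HP SNL 1, 2 or 3 in HP, and LP sham 1 or 2, LP SNL 1, 2 or 3, HP sham 1 and HP SNL 1, 2 or 3 in LP. Dcn rose by 0.44 ± 0.12 in HP (adjusted p = 0.0383), lost without any 1 of the 6 HP arrays, without LP sham replicate 3 or without LP SNL replicate 1, and differed by 0.34 ± 0.12 in LP (adjusted p = 0.0924). Vcan was dim, at 99.0, 80.8 and 85.6 in HP sham, 126, 180.3 and 155 in HP SNL, 24.9, 84.2 and 81.5 in LP sham and 131, 156 and 198 in LP SNL. LP sham replicate 1 stood below the other arrays. Vcan rose by 1.50 ± 0.39 in LP (adjusted p = 0.0286), lost without any 1 of the 3 LP SNL arrays, and differed by 0.78 ± 0.39 in HP (adjusted p = 0.243). Its 4 other probe sets gave between 0.16 and 0.86 in HP and between 0.38 and 2.52 in LP.

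Of the 17 proteases, 4 rose in HP and 6 in LP, and none fell on the probe set that stood for it. The group of 10 secreted matrix metalloproteases held every Mmp gene outside the membrane-type list, so Mmp23 was placed there by that rule alone. In this group Mmp2 and Mmp3 rose in both lines and the other 8 were called in neither. Mmp2, gelatinase A, cuts denatured and type IV collagen. It gave 841, 929 and 834 in HP sham, 1449, 1774 and 1539 in HP SNL, 833, 939 and 849 in LP sham and 1881, 1717 and 2062 in LP SNL. The sham arrays of the lines covered a similar range and all SNL arrays lay above. Mmp2 rose by 0.87 ± 0.11 (adjusted p = 0.000889) and 1.11 ± 0.11 (adjusted p = 0.000185). Its other probe set, with a mean signal of 223 against 1304, gave 0.03 ± 0.27 in HP and -0.31 ± 0.27 in LP and did not pass (adjusted p = 0.962 and 0.533), so the direction in LP turned with the probe set.

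Mmp3, stromelysin 1, which cuts proteoglycans and activates other metalloproteases, gave 68.5, 114 and 82.6 in HP sham, 137, 193 and 179.9 in HP SNL, 128, 96.2 and 129 in LP sham and 186, 176 and 203 in LP SNL. The groups did not overlap, but by its mean log2 signal Mmp3 was in the dimmest 25% of genes. Mmp3 rose by 0.95 ± 0.20 (adjusted p = 0.0125) and 0.68 ± 0.20 (adjusted p = 0.0481). The LP call was kept in 6 of 23 alternatives and lost without any 1 of the 6 LP arrays, HP sham replicate 3, or HP SNL replicate 2 or 3 (adjusted p up to 0.151).

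Mmp9, gelatinase B, is known as an early protease of injured ganglia, and was dim here. It gave 54.6, 86.9 and 76.7 in HP sham, 61.4, 96.9 and 66.2 in HP SNL, 14.3, 58.0 and 52.7 in LP sham and 89.7, 85.8 and 56.9 in LP SNL. The groups overlapped in both lines, and differences of 0.04 ± 0.46 and 1.08 ± 0.46 did not pass (adjusted p = 0.974 and 0.160). The 95% intervals, -0.98 to 1.06 in HP and 0.06 to 2.10 in LP, leave room for a change of more than 2-fold in either line. Mmp13, a collagenase, gave 108, 101 and 142 in HP sham, 85.6, 67.8 and 107 in HP SNL, 103, 96.2 and 124 in LP sham and 143, 129 and 125 in LP SNL. The HP SNL group had the lowest mean and overlapped HP sham, and the LP SNL arrays lay just above LP sham, with uncalled differences of -0.43 ± 0.18 and 0.30 ± 0.18 (adjusted p = 0.162 and 0.341). Mmp12, the macrophage elastase, had no overlap between groups but did not pass, at 0.52 ± 0.18 and 0.48 ± 0.18 (adjusted p = 0.0964 and 0.120). Mmp7, Mmp8, Mmp10, Mmp11 and Mmp23 lay between 0.01 and 0.22 in HP and between -0.05 and 0.86 in LP.

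In the RefSeq annotation of GRCr8, 6 of these secreted proteases lie in a run of 10 neighbouring protein-coding genes on chromosome 8, all of them metalloproteases, in the order Mmp13, Mmp12, Mmp3, Mmp10, Mmp8 and Mmp7. Only Mmp3 of the 6 was called. A RefSeq promoter window, from 250 bases before the start site to 50 after it, was matched for 47 of the 63 matrix genes, 19 of them among the 29 genes that rose in at least 1 line. The AP-1 letters TGANTCA, a palindrome counted once, were in 14.9% of the 47 windows and in 7.33% of all 33469 windows, the TATA box TATAAA on either strand in 25.5% and 14.2%, and the GC box GGGCGG on either strand in 48.9% and 33.1%. The run itself holds 5 of the 7 matrix windows with the AP-1 letters and 6 of the 12 with the TATA box. The 47 are 1 window per gene, while the 33469 were used as listed and not limited to genes on the array. The 6 windows of the run are shown because these genes lie side by side and 5 of them share the AP-1 letters close to the start. Each line gives the last 100 bases before the start site on the plus strand, with AP-1 and TATA box matches in capitals, in genome order: Mmp13 (chr8:12782729-12782828), Mmp12 (chr8:12866552-12866651), Mmp3 (chr8:12925181-12925280), Mmp10 (chr8:12974607-12974706), Mmp8 (chr8:13008790-13008889) and Mmp7 (chr8:13132943-13133042).
Mmp13: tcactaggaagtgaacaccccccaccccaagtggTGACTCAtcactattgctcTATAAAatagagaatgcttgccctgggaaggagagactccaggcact
Mmp12: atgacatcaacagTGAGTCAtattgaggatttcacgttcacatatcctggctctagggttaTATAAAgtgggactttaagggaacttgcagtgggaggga
Mmp3: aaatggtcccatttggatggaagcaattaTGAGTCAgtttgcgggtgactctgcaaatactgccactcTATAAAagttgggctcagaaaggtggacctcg
Mmp10: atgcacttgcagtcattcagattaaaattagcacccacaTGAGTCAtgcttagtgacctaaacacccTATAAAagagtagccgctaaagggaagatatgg
Mmp8: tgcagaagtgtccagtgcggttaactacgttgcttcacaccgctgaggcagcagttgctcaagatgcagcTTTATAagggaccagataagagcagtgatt
Mmp7: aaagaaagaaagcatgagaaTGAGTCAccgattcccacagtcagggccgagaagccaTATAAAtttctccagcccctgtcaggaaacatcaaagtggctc

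All 6 windows hold a TATA box match, that of Mmp8 on the reverse strand, and all but Mmp8 hold the AP-1 letters. The AP-1 match begins 71 bases before the start in Mmp3, 66 in Mmp13, 61 in Mmp10, 80 in Mmp7 and 87 in Mmp12. Of the other 8 Mmp genes, 3 had a window and none of the 3 held the AP-1 letters. A match is a description of letters, not a bound site, and any link between these motifs and the calls was not tested. Of the 6 genes only Mmp12 lay outside the dimmest 25%, so a missing call does not show a missing response.

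The 4 membrane-type matrix metalloproteases are anchored at the cell surface. Mmp16 gave 108, 94.3 and 91.9 in HP sham, 234, 267 and 251 in HP SNL, 122, 135 and 107 in LP sham and 266, 320.5 and 288 in LP SNL. The groups were far apart in both lines. Mmp16 rose by 1.35 ± 0.12 (adjusted p = 0.000183) and 1.26 ± 0.12 (adjusted p = 0.000160), in all 24 alternatives. Mmp14, the surface activator of Mmp2, gave 990.2, 1361 and 1347 in HP sham, 1833, 1262 and 1573 in HP SNL, 1032, 1088 and 988 in LP sham and 2131, 1352 and 1655 in LP SNL. The HP groups overlapped through HP SNL replicate 2 and the LP groups did not. Mmp14 rose by 0.70 ± 0.20 in LP (adjusted p = 0.0379), a call lost without any 1 of the 3 LP sham arrays, LP SNL replicate 1 or 3, HP sham replicate 3 or HP SNL replicate 3, and differed by 0.33 ± 0.20 in HP (adjusted p = 0.317). Mmp17 and Mmp24 were uncalled, at 0.35 ± 0.15 and 0.13 ± 0.12 in HP and 0.21 ± 0.15 and 0.11 ± 0.12 in LP, although 1 of the other probe sets of Mmp24 gave -0.44 ± 0.13 and -0.52 ± 0.13 (adjusted p = 0.0479 and 0.0233 among all probe sets).

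ADAMTS proteases are secreted enzymes, several of which cut versican and aggrecan. Adamts1 gave 187, 228 and 219 in HP sham, 361, 459 and 408 in HP SNL, 148, 215 and 239 in LP sham and 609, 599 and 718 in LP SNL. The LP SNL arrays lay above the HP SNL arrays, which lay above both sham groups. It rose 1.93-fold in HP, 0.95 ± 0.18 (adjusted p = 0.00685), and 3.24-fold in LP, 1.70 ± 0.18 (adjusted p = 0.000246), in all 24 alternatives. Adamts9 was dim, at 28.1, 23.2 and 23.0 in HP sham, 118, 37.8 and 43.3 in HP SNL, 22.7, 21.0 and 24.4 in LP sham and 79.5, 54.5 and 191 in LP SNL. The sham values were tight and the SNL values spread widely but above them. Adamts9 rose by 2.01 ± 0.47 in LP (adjusted p = 0.0184), lost without LP sham replicate 1 or 2 or LP SNL replicate 3, and differed by 1.20 ± 0.47 in HP (adjusted p = 0.135). Adamts7 was uncalled at -0.23 ± 0.16 and -0.11 ± 0.16.

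The responses of the lines were then set side by side. Of the matrix genes, 20 were called in both lines, all in the same direction, which is 90.9% of the HP calls and 71.4% of the LP calls, while over all genes 999 were called in both, 70.4% and 66.4%. Col5a1 (whose other probe set passed in both lines) and Dcn were called in HP only. Those called in LP only were Adamts9, Col6a1, Col7a1, Lamb1, Lox (whose other probe set passed in neither line), Lum, Mmp14 and Vcan. The sign was the same in both lines for 54 of the 63 genes (85.7%, against 71.6% of all genes), and the signed difference was higher in LP than in HP for 39 (61.9%, against 51.5% of all genes). The median of the LP minus HP response was 0.10 over the 63 genes and 0.01 over all.

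The test of the difference between the responses, limma's interaction term, called 0 of the 63 genes and 0 of 10411 (0.0%), so none of the genes called in 1 line only was shown to respond differently. At an unadjusted p under 0.05 there were 4 of the 63 matrix genes and 490 of all 10411 genes. The LP minus HP response was 0.75 ± 0.25 for Adamts1 (95% interval 0.19 to 1.31, unadjusted p = 0.014), 0.73 ± 0.26 for Mmp13 (95% interval 0.16 to 1.31, unadjusted p = 0.018), 0.66 ± 0.27 for Tnc (95% interval 0.05 to 1.26, unadjusted p = 0.037) and 3.25 ± 1.05 for the dim Col4a4 (95% interval 0.93 to 5.58, unadjusted p = 0.011). The adjusted p was 0.988 for all 4. Mmp13 and Col4a4 had differences of opposite sign in the lines, below 0 in HP and above 0 in LP, and were called in neither. For Col18a1 the interaction was 0.29 ± 0.19 (95% interval -0.13 to 0.71), for Fn1 0.06 ± 0.26 (-0.52 to 0.63) and for Col5a2 0.02 ± 0.14 (-0.29 to 0.34).

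**Figure D4:**
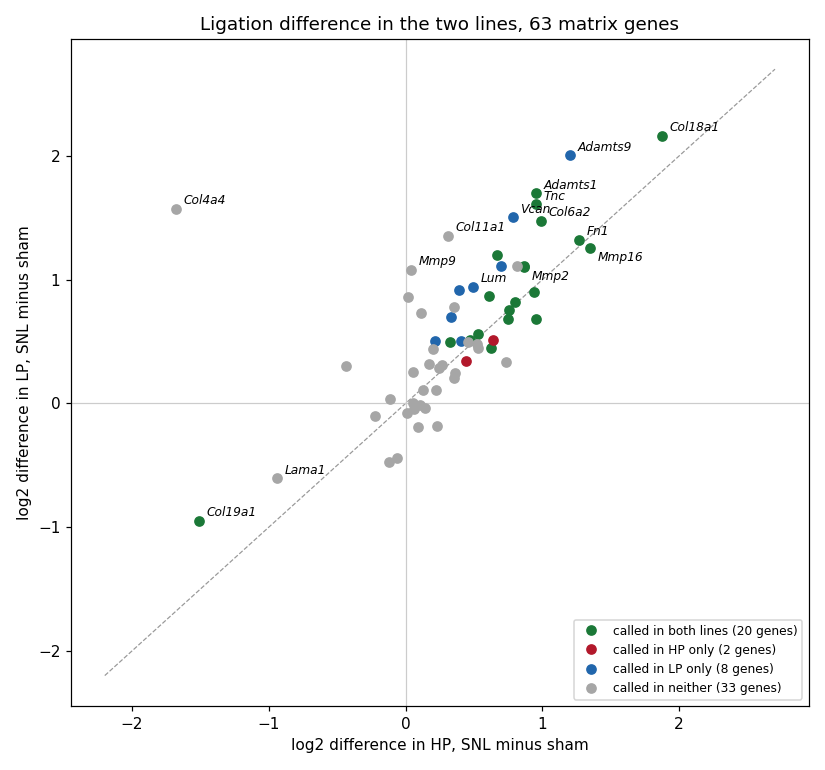
Log2 difference between SNL and sham in HP (x axis) against that in LP (y axis) for the 63 matrix genes, coloured by the lines in which each was called, with the dashed line marking equal responses. Most of the 20 genes called in both lines lie on or above that line, and the dim Col4a4, at -1.68 and 1.57, lies apart without a call in either line.

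No matrix gene was called between the lines after sham surgery, where 1 of 10411 genes was (0.00961%), or after SNL, where 18 were (0.173%, with 0.0864% in each direction). At an unadjusted p under 0.05 there were 8 of the 63 matrix genes in each comparison. Over all 10411 genes there were 1016 after sham and 1110 after SNL. After sham all LP arrays lay above all HP arrays for 3 of the 63 genes and below them for 4 (8.19% and 7.4% of all genes), and after SNL for 9 and 3 (9.1% and 8.33% of all genes). After sham, LP minus HP was 0.56 ± 0.17 for the cartilage-type collagen Col9a2, -0.54 ± 0.18 for Col12a1 and -0.55 ± 0.19 for Tnc (adjusted p = 0.387, 0.400 and 0.420). Col9a2 gave 186, 179.7 and 225 in HP sham and 268, 333 and 270.5 in LP sham, without overlap, and 289.5, 220.5 and 189.8 in HP SNL and 259, 287 and 219.5 in LP SNL, with overlap. After SNL, LP minus HP was 0.65 ± 0.18 for Adamts1, 0.62 ± 0.18 for Mmp13 and 0.28 ± 0.09 for Lamc1 (adjusted p = 0.247, 0.276 and 0.310), with no overlap between the arrays of the lines for any of the 3.

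Genes that make, hold or read the matrix were taken from 4 lists that share no gene with the 63. Results under the alternative settings are given only for the 63. Over all genes 7.02% were called higher and 6.61% lower in HP, and 7.66% and 6.79% in LP. Of 16 genes for collagen processing and cross-linking, 9 rose in HP and 9 in LP and none fell. Loxl1, a relative of Lox, rose by 2.20 ± 0.43 in HP and 1.72 ± 0.43 in LP. Its HP arrays lay at 27.3 to 36.2 after sham and 119.5 to 205 after SNL and its LP arrays at 25.4 to 36.4 and 50.8 to 215, without overlap in either line. The sham values were dim, below the 25th percentile of each sham array (99.55 to 133.0). Tgm2, a transglutaminase that cross-links fibronectin, rose by 0.88 ± 0.14 and 1.00 ± 0.14, and Plod3, a lysyl hydroxylase, by 0.91 ± 0.14 and 0.55 ± 0.14. Serpinh1, the collagen chaperone, rose by 0.54 ± 0.13 and 0.73 ± 0.13, Pcolce, which speeds procollagen trimming, by 0.56 ± 0.11 and 0.86 ± 0.11, and Bmp1, which does the trimming, by 0.72 ± 0.12 and 0.54 ± 0.12. P4hb, a subunit of prolyl hydroxylase, rose by 0.52 ± 0.12 and 0.56 ± 0.12.

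Of 14 protease inhibitors and activators, 4 rose in HP and 6 in LP and none fell. Timp1, the tissue inhibitor that binds most matrix metalloproteases, gave 1488, 1871 and 1391 in HP sham, 5664, 4546 and 5492 in HP SNL, 1193, 1644 and 1617 in LP sham and 5486, 4601 and 4591 in LP SNL. The groups were far apart in both lines, and it rose by 1.73 ± 0.16 in LP (adjusted p = 0.000162), close to its value in HP. A2m, a plasma-type inhibitor that traps many proteases, lay at 355 to 635 on the LP sham arrays and 2808 to 3991 on the LP SNL arrays, a rise of 2.76 ± 0.22. The plasminogen activator Plau and its receptor Plaur rose in both lines, by 0.60 ± 0.15 and 0.84 ± 0.14 in HP and 0.67 ± 0.15 and 0.75 ± 0.14 in LP.

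Of 16 matrix receptors, 5 rose in HP and 4 in LP and none fell. The syndecans Sdc1 and Sdc4, heparan sulfate proteoglycans of the cell surface, rose by 1.02 ± 0.19 and 0.80 ± 0.13 in HP and 0.93 ± 0.19 and 0.76 ± 0.13 in LP. The laminin-binding integrin chain Itga7 rose by 0.72 ± 0.12 and 0.52 ± 0.12, its partner Itgb1 by 0.59 ± 0.11 and 0.52 ± 0.11, and the hyaluronan receptor Cd44 by 0.85 ± 0.14 in HP, with 0.39 ± 0.14 in LP not passing (adjusted p = 0.103).

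Of 38 other matrix proteins, 8 rose and 3 fell in HP, and 10 rose and 3 fell in LP. The rising share was 21.1% in HP and 26.3% in LP. The falling share, 7.89% in each line, was near the 6.61% and 6.79% of all genes. Ltbp1, which stores transforming growth factor beta in the matrix, rose by 1.39 ± 0.23 and 1.72 ± 0.23, Thbs4, a thrombospondin, by 0.98 ± 0.16 and 1.04 ± 0.16, and Tgfbi by 0.90 ± 0.16 and 0.90 ± 0.16. Brevican (Bcan), a proteoglycan of nervous tissue, fell by 1.22 ± 0.19 on the log2 scale in HP and by 0.83 ± 0.19 in LP, and Fbln2, a basement membrane fibulin, fell by 0.79 ± 0.13 and 0.69 ± 0.13. Signals of Fbln2 lay at 3030.2 to 3471 in HP sham, 1703 to 1984 in HP SNL, 2422 to 3042 in LP sham and 1540.1 to 1952 in LP SNL, without overlap.

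**Figure D5:**
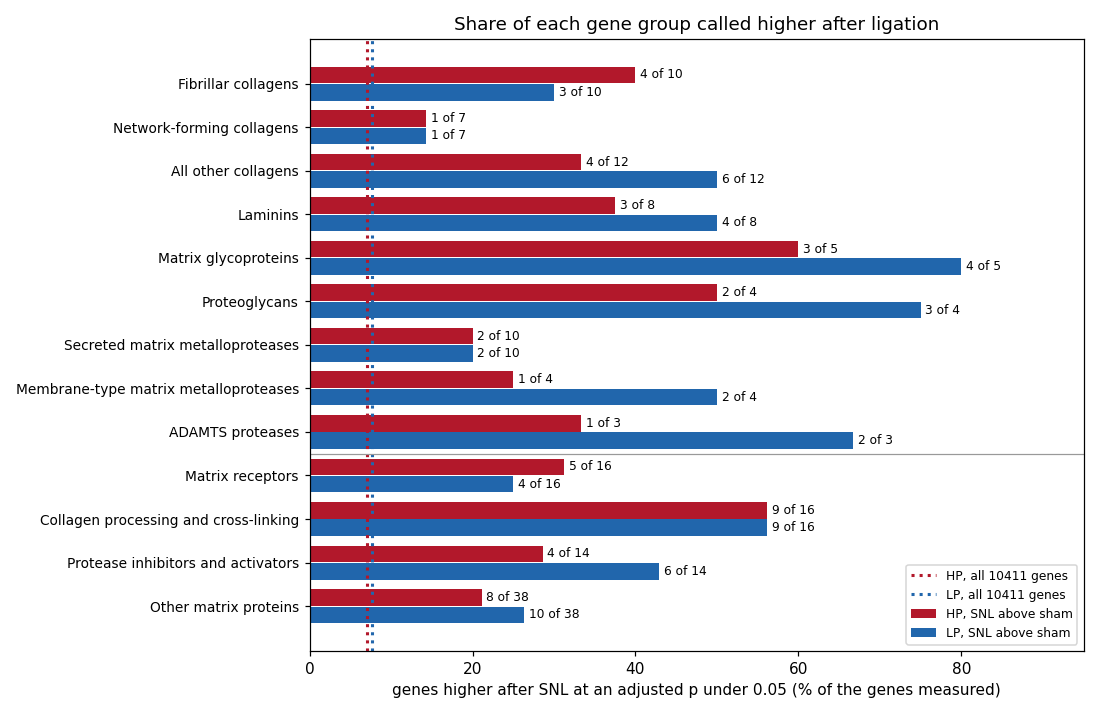
Share of the measured genes of each role group and companion list that were called higher after SNL (x axis, percent, from 0) in HP (red) and LP (blue), with dotted lines at 7.02% and 7.66% for all 10411 genes. Collagen processing genes reach 56.2% in both lines, network-forming collagens 14.3%, and role groups of 3 to 12 genes give coarse shares.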

How the data were processed

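The deposited table, made by the authors, gives each probe set 1 linear intensity on each array. Per the submitters' processing notes the tool was RMA, with no version; for other steps, not given in the sources used here. Neither the shared trimmed mean of 500.1 nor the linear scale is that of RMA alone, so the authors' steps are not settled here. The deposited values were used as given and turned into log2(signal + 1); the plan had already named that scale for linear values.

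Gene names came from the platform annotation and were brought up to date with RefSeq (GRCr8): of 15923 probe sets, 12783 had 1 gene, 312 several, 2771 none and 57 were controls. The brightest probe set stood for a gene. The 4 group means were fitted over all 12 arrays (limma 3.58.1, statmod 1.5.0, R 4.3.3; lmFit, contrasts.fit, eBayes; 8 residual degrees of freedom), without a filter, two-sided, with Benjamini-Hochberg adjustment over 10411 genes and a threshold of 0.05. The fit was tested on simulated data. Tables and figures were made with Python 3.11.15, pandas 2.3.3 and matplotlib 3.10.9. With 3 arrays per group, their number limits the precision.

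The matrix genes, role groups, companion lists and marker lists were chosen with earlier results of these data known, and none supports a direction by itself. Named genes were the 10 largest increases and decreases called in each ligation comparison, the 3 smallest p-values of each line comparison and of the interaction, the smallest p of each role group, 12 genes by name and up to 4 genes per companion list. Further matrix genes, such as Col4a2, are given to account for the set and were picked after their values were seen. Groups and replicate numbers came from the sample titles. Same-numbered arrays of different groups did not deviate together (18 pairs, correlation of deviations -0.16 to 0.10), so the numbers were not used as a block. Alternatives were pseudocounts of 16 and 32, median centring, quantile normalization, a fit without the dimmest 25% of genes, array weights, only the arrays compared, a trended and robust variance, the probe sets of a gene averaged, the second brightest probe set, a replicate block, the actin ratio as a covariate and leaving out each array in turn. Protein motifs were not analysed here.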

Additional observations from a re-analysis of the deposited data

How the results depend on the processing

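In HP 22 matrix genes were called, and 9 once the actin ratio entered the fit (13.6% and 7.84% of all genes). HP sham and HP SNL arrays do not overlap in the actin ratio but do in the GAPDH ratio. The cause of the lower count was not tested. Leaving out 1 array gave 13 to 25 calls in HP and 17 to 28 in LP, where the count was 28 with all arrays (14.4% of all genes). In LP the fit to only the arrays compared, which has fewer samples, gave 15, as the share of all genes called fell to 7.82%. Under the other alternatives the counts lay within 1.5 times of those reported, with 18 and 21 under median centring and 20 and 27 under quantile normalization. The replicate numbers do not pair the arrays; with a replicate block 17 genes were called in HP and 24 in LP (10.7% and 12.0% of all genes), and Bgn and Col3a1 lost their calls in both lines (adjusted p = 0.0536 and 0.0884 in HP, 0.069 and 0.0652 in LP). The interaction and both line comparisons called 0 matrix genes under every alternative run. Calls made under every alternative numbered 7 of 21 increases and the 1 decrease in HP, and 10 of 27 increases and 0 of 1 decreases in LP. Of the called genes, 2 turned sign: Mmp2 in LP, at -0.31 on the second brightest probe set, and Lama5 in HP, at -1.21 on that probe set and also below 0 with its probe sets averaged; the cause was not tested. Low signal limits the 14 dimmest genes, among them Mmp3, Mmp9, Vcan, Adamts9, Col4a4 and Col19a1.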
